A study of Mus musculus with 6 samples.

Results

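The spinous and suprabasal differentiation genes are 7 genes grouped here under the name of the layers above the basal layer of the epidermis: Serpinb2, Sbsn, Krtdap, Calm4, Calml3, Lgals7 and Mt4. They were chosen by symbol, as the probe sets annotated to each of these names alone, and all 7 were measured, by 1 probe set each, among 19938 named genes. Levels are given throughout as log2(intensity + 16). In the double knockout of Ovol1 and Ovol2, Serpinb2 was 11.0-fold lower than in control keratinocytes. Sbsn was 4.98-fold lower than in arrays labelled Ovol1 KO, a call lost without the first of these arrays or without either double knockout array. Against control Sbsn missed the threshold (limma adjusted p = 0.0570). The other 5 genes passed in none of the 3 comparisons, and in Krtdap, Calm4 and Lgals7 the arrays of at least 1 group lay over 2 log2 units apart.

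Epidermal keratinocytes divide in the basal layer, then detach and move outward through the spinous and granular layers until they become the dead, cross-linked cells of the surface. The spinous programme is known for new keratins and desmosomal proteins, and also for small secreted proteins, calcium-binding proteins, intracellular protease inhibitors, lectins and metal-binding proteins, the classes to which the 7 genes belong. Raised extracellular calcium is a classical trigger of this programme in culture. Ovol1 and Ovol2 belong to a small family of zinc finger proteins that regulate transcription in epithelia, best known as repressors.

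Primary keratinocytes came from the skin of C57BL/6 embryos at E18.5, labelled female, and were cultured for 2 to 5 days with no calcium. Each of 6 one-colour Affymetrix arrays held RNA pooled from 2 mice, with 2 arrays in each of 3 groups. Ovol1/2 DKO arrays were from Ovol2flox/-;K14-Cre;Ovol1-/- mice. By this genotype, a copy of Ovol2 is missing from all cells and the floxed copy is deleted in K14-expressing keratinocytes. Ovol1 is missing from all cells. Arrays labelled Ovol1 KO were from Ovol1-/- mice. Control arrays were from Ovol2flox/+;Ovol1+/- mice or Ovol2flox/+;K14-Cre mice. By genotype, some controls thus lacked a copy of Ovol1. Others carried the Cre driver beside a floxed copy of Ovol2, which their K14-expressing keratinocytes would lose. The comparisons set the double knockout against control, the double knockout against the single knockout, and the single knockout against control. The stated purpose of the short culture was to find primary changes.

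The Ovol1 probe set read 5.96 and 6.22 in the Ovol1/2 DKO arrays, 10.75 and 9.80 in arrays labelled Ovol1 KO, and 9.64 and 9.95 in Control arrays. The same probe set was thus low in the double knockouts, which carry the same Ovol1-/- genotype (log2 difference from Control -3.70, limma adjusted p = 0.00755), and as bright as Control in the arrays labelled Ovol1 KO, which goes against their label. Ovol2 read 7.63 and 7.50 in the Ovol1/2 DKO arrays, 7.88 and 8.38 in arrays labelled Ovol1 KO, and 8.37 and 6.97 in Control arrays, with no loss seen against Control (-0.10, SE 0.45). Which part of Ovol2 the probes cover is not given in the sources used here, so this value does not check the deletion. Xist was at 4.54 in the first array labelled Ovol1 KO and 4.43 in the first Control array, against 10.99 to 11.43 in the other 4, although all are labelled female. The Y-linked gene Eif2s3y read 13.80 in the first array labelled Ovol1 KO. It was at most 5.14 in every other array and read 4.85 in the first Control array. The basal keratins Krt5 and Krt14 were between 13.21 and 13.55 in all 6 arrays. Median intensity ran from 103.3 to 109.8. The small number of arrays sets the precision, with a standard error of 0.245 for the log2 difference of a typical (median) gene.

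The 2 genes that passed a test are shown first with their promoters, together with Krtdap, which lies near Sbsn in the genome. Each window is RefSeq's, on the mouse build GRCm38.p6, and runs 5′ to 3′ from 250 bases before the annotated start to 50 after it. Capitals mark the letters TGANTCA, to which AP-1 factors are known to bind. They also mark the core promoter box TATAAA. All 3 genes are on the plus strand, with Serpinb2 at chr1:107511173-107511472, Sbsn at chr7:30751221-30751520 and Krtdap at chr7:30787655-30787954.
Serpinb2: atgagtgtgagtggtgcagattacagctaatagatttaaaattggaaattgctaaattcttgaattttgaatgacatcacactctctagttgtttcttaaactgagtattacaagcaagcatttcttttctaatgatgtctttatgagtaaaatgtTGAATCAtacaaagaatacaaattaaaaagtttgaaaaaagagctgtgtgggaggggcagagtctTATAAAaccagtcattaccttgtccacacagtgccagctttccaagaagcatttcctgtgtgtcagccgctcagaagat
Sbsn: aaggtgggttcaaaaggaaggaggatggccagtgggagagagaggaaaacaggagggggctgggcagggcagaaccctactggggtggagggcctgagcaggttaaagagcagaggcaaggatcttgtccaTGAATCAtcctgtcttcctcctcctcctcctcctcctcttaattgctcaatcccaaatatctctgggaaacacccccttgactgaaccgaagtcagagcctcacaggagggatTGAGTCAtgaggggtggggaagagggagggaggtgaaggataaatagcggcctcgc
Krtdap: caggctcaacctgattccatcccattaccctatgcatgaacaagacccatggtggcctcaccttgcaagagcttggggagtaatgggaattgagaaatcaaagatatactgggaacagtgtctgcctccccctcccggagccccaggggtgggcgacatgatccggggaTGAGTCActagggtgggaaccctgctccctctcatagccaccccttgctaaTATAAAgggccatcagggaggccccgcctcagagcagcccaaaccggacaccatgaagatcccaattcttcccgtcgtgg

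In these windows TGANTCA begins at position -94 from the start in Serpinb2, at -119 and -6 in Sbsn and at -81 in Krtdap. TATAAA begins at -29 in Serpinb2 and at -30 in Krtdap, with none in the Sbsn window. RefSeq holds a second, overlapping window for Serpinb2, at chr1:107511260-107511559, from a start further downstream; counted from that start, the same TGANTCA begins at -181 and the same TATAAA at -116. None of these matches overlaps another. Of the 6 genes with a RefSeq window here, the 3 shown held TGANTCA, against 7.81% of all 32851 promoters of that length, and 3 held TATAAA (Serpinb2, Krtdap and Mt4), against 13.6%. The Klf letters CACCC were in 4 of the 6, against 57.5% of promoters, and the metal response element core TGCNCNC in 4, against 51.0%; the Mt4 window held 5 such matches. The Ovol letters CCGTTA were in none of the 6 and in 2.76% of promoters. Both strands were searched. Krtdap held the same 2 kinds of match as Serpinb2. Whether any match bears on the levels of these genes was not tested. A match is a stretch of letters and not a measured binding site.

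Serpinb2 (Entrez 18788, probe set 10349157) encodes plasminogen activator inhibitor 2, a serpin that blocks urokinase and tissue plasminogen activator and in keratinocytes stays largely inside the cell. Its level was 8.95 and 9.95 in the Ovol1/2 DKO arrays, against 12.28 and 12.78 in arrays labelled Ovol1 KO and 12.99 and 12.83 in Control arrays. Both double knockout arrays were below all 4 others. Serpinb2 fell by 3.47 in Ovol1/2 DKO against Control (log2 difference -3.47, SE 0.36, 95% interval -4.32 to -2.61, limma adjusted p = 0.00948). Against the arrays labelled Ovol1 KO it fell by 3.08 (SE 0.36, 95% interval -3.94 to -2.22, limma adjusted p = 0.0106), which is 8.47-fold lower. These comparisons share the double knockout arrays. The difference between arrays labelled Ovol1 KO and those of Control was -0.38 (SE 0.36, limma adjusted p = 0.999). The call against the arrays labelled Ovol1 KO was lost without their first array (limma adjusted p = 0.0526). In such RNA from whole cultures, fewer cells of a type and less RNA per cell cannot be told apart.

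Sbsn (Entrez 282619, probe set 10552037) encodes suprabasin, a secreted protein of the suprabasal layers. It read 9.35 and 9.49 in the Ovol1/2 DKO arrays, against 12.25 and 11.22 in arrays labelled Ovol1 KO and 11.14 and 11.78 in Control arrays. The double knockout arrays lay close together and below the other 4, while the arrays labelled Ovol1 KO overlapped with Control. Sbsn fell in Ovol1/2 DKO against the arrays labelled Ovol1 KO (log2 difference -2.32, SE 0.38, 95% interval -3.23 to -1.40, limma adjusted p = 0.0285). Against Control the difference was -2.04 (SE 0.38, 95% interval -2.96 to -1.13), or 4.12-fold lower, and missed the threshold of 0.05 (limma adjusted p = 0.0570, unadjusted p = 0.00125). Over 19 alternative ways of processing, the Control comparison ran from -2.36 to -1.72 and passed in 7, while the comparison with the arrays labelled Ovol1 KO passed in 14. Leaving out either array of the group not compared gives the same fit as the compared groups alone, so such passes are not separate. For the Control comparison this shared fit passed (limma adjusted p = 0.0316). The call against the arrays labelled Ovol1 KO was lost without the first of these arrays (limma adjusted p = 0.0859), without the first double knockout array (0.151) and without the second (0.142).

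**Figure D1:**
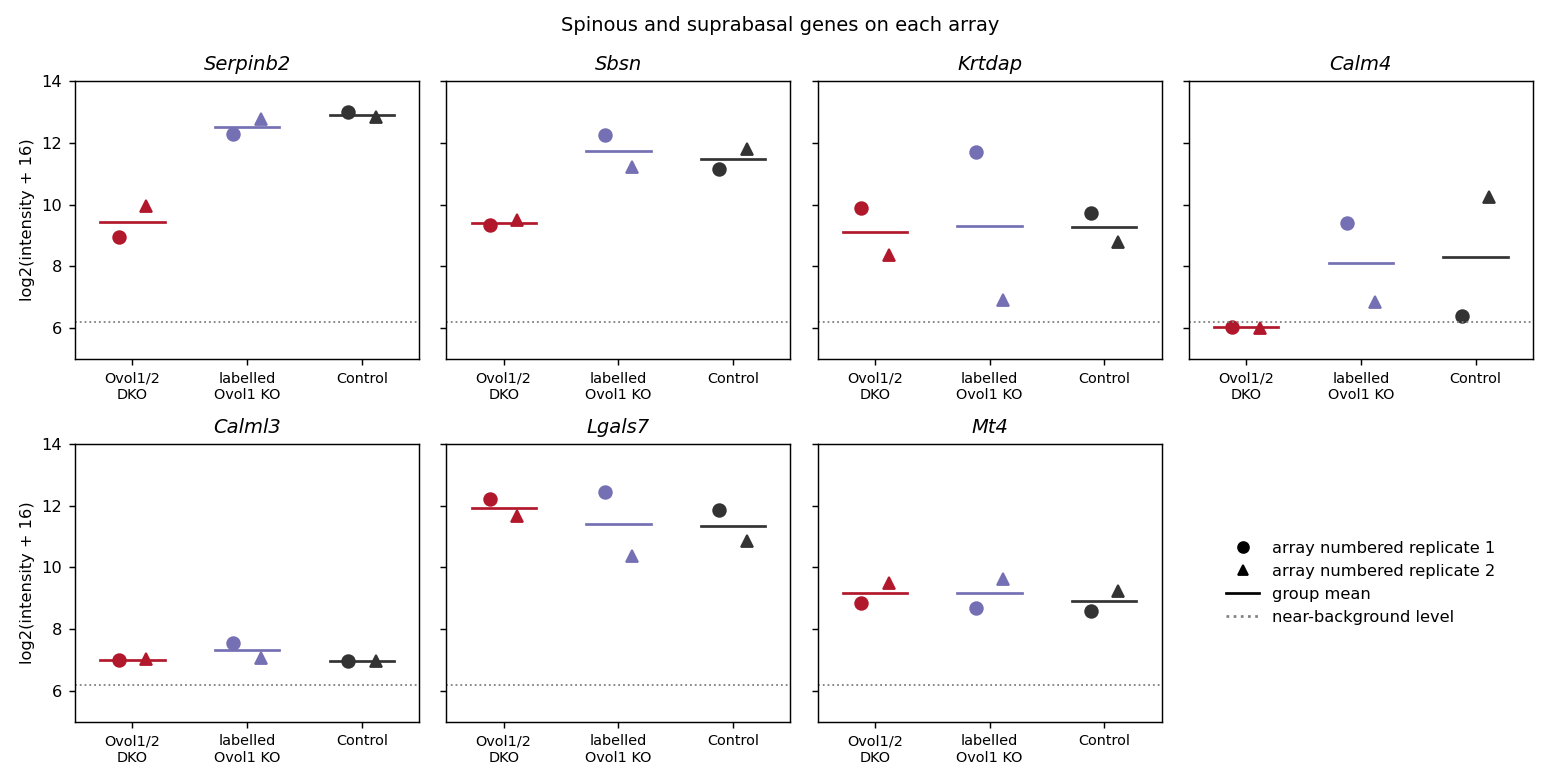
Level of each of the 7 genes on each array, as log2(intensity + 16) on the vertical axis, 1 panel per gene, with Ovol1/2 DKO, labelled Ovol1 KO and Control from left to right; circles are the arrays numbered replicate 1, triangles those numbered replicate 2, solid lines group means and the dotted line the near-background level of 6.20. Serpinb2 and Sbsn have both double knockout arrays below all others (at most 9.95 and 9.49), whereas the Krtdap arrays labelled Ovol1 KO span 6.91 to 11.72.

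Krtdap (Entrez 64661, probe set 10552064) encodes keratinocyte differentiation associated protein, a small secreted peptide of the suprabasal layers. Its level was 9.88 and 8.36 in the Ovol1/2 DKO arrays, 11.72 and 6.91 in arrays labelled Ovol1 KO, and 9.72 and 8.80 in Control arrays. The highest and the lowest value of the whole series thus came from the same group, 4.81 log2 units apart. The difference of Ovol1/2 DKO from Control was -0.14 (SE 1.41, 95% interval -3.52 to 3.24), and that from the arrays labelled Ovol1 KO was -0.19 (95% interval -3.57 to 3.19). These intervals are too wide to show either a fall like that of Serpinb2 or its absence. The residual standard deviation, 2.09, was higher than that of 99.9% of genes.

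Sbsn, Dmkn and Krtdap follow one another as protein-coding genes on mouse chromosome 7. Dmkn encodes dermokine, another secreted protein of the suprabasal layers. Dmkn read 8.58 and 9.70 in the Ovol1/2 DKO arrays, 12.81 and 11.63 in arrays labelled Ovol1 KO, and 11.89 and 12.14 in Control arrays. It fell in the double knockout against Control (log2 difference -2.88, SE 0.49, limma adjusted p = 0.0404) and against the arrays labelled Ovol1 KO (-3.09, limma adjusted p = 0.0245). With single arrays left out, the call against Control was lost without either Control or either double knockout array. It held only where an array labelled Ovol1 KO was left out, which removes none of the arrays compared. The call against the arrays labelled Ovol1 KO was lost without the first array of that group or the first double knockout array. It held without the second array of either group, and without either Control array, which that comparison does not use. The 3 neighbours did not share one pattern over the 6 arrays: Sbsn and Dmkn were low in both double knockout arrays, and Krtdap was lowest in the second array labelled Ovol1 KO. Whether the neighbours differ from each other in their response was not tested. Across the 6 arrays, which share 3 groups, Pearson's r was 0.27 between Krtdap and Sbsn, 0.88 between Sbsn and Serpinb2, and 0.88 between Krtdap and Lgals7.

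Calm4 (Entrez 80796, probe set 10403281) encodes a calmodulin-like calcium-binding protein of mouse skin. It read 6.04 and 6.02 in the Ovol1/2 DKO arrays, against 9.40 and 6.84 in arrays labelled Ovol1 KO and 6.38 and 10.25 in Control arrays. Both double knockout arrays were under 6.20, the level taken as near background because it is the highest array median of probe sets with no gene name. High values came from 1 array of each other group, the first labelled Ovol1 KO and the second Control. The difference of Ovol1/2 DKO from Control was -2.29 (SE 1.28, 95% interval -5.35 to 0.78, limma adjusted p = 0.722). It was -4.22 without the first Control array and -0.35 without the second. Against the arrays labelled Ovol1 KO it was -2.09 (SE 1.28, 95% interval -5.15 to 0.97, limma adjusted p = 0.558).

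The 3 genes whose values were most like those of Calm4 over the 6 arrays were Defb6, Lce1a1 and Lce1c, with Pearson's r of 0.987, 0.984 and 0.978. Defb6 encodes a beta-defensin, an antimicrobial peptide, and the Lce1 genes encode late cornified envelope proteins. Lce1a1 read 12.12 in the first array labelled Ovol1 KO and 12.16 in the second Control array, with no other array above 6.18. The mean level of the 15 measured granular and cornified genes was 6.17 and 7.06 in the Ovol1/2 DKO arrays, 10.66 and 8.91 in arrays labelled Ovol1 KO, and 8.84 and 9.94 in Control arrays. The same arrays as for Calm4 were thus the higher of each pair outside the double knockout. What part the differentiation stage of single cultures has in the Calm4 values was not tested.

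Calml3 (Entrez 70405, probe set 10407416) encodes an epithelial calmodulin-like protein whose human form is known to bind the motor protein myosin-10. Calml3, Calm4 and Calm5 are consecutive protein-coding genes on mouse chromosome 13. Calml3 read 6.98 and 7.02 in the Ovol1/2 DKO arrays, 7.55 and 7.08 in arrays labelled Ovol1 KO, and 6.96 and 6.95 in Control arrays. The difference of Ovol1/2 DKO from Control was 0.05 (SE 0.22, 95% interval -0.49 to 0.58), so the interval leaves out a doubling or a halving on this scale. Against the arrays labelled Ovol1 KO it was -0.31 (95% interval -0.85 to 0.22), and the arrays labelled Ovol1 KO differed from Control by 0.36 (95% interval -0.18 to 0.90). Of the 4 other calmodulin genes measured, 0 passed in any comparison, with a median difference from Control of -0.06 in the double knockout. The general calmodulin gene Calm2 differed by -0.08, Calm3 by 0.03, and Calm5, at or below 5.86 in all arrays, by -0.03.

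Lgals7 (Entrez 16858, probe set 10551638) encodes galectin-7, a lectin of stratified epithelia that binds beta-galactosides. It was bright in all arrays, at 12.20 and 11.66 in the Ovol1/2 DKO arrays, 12.42 and 10.35 in arrays labelled Ovol1 KO, and 11.85 and 10.85 in Control arrays. The groups overlapped, and the first array was the higher one in each of them, as it was for Krtdap and for 28.1% of all genes. The difference of Ovol1/2 DKO from Control was 0.58 (SE 0.67, 95% interval -1.02 to 2.18) and that from the arrays labelled Ovol1 KO was 0.54 (95% interval -1.06 to 2.14). What the replicate numbers share is not given in the labels, and its part in these values was not tested.

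Among the 7 other galectins measured, Lgals3 fell and Lgals9 rose in the double knockout against both other groups. Lgals3, a galectin also found in many non-epithelial cells, read 9.89 and 10.82 in the Ovol1/2 DKO arrays, 13.001 and 12.79 in arrays labelled Ovol1 KO, and 12.41 and 12.80 in Control arrays. Its log2 difference was -2.25 against Control (SE 0.34, limma adjusted p = 0.0287) and -2.54 against the arrays labelled Ovol1 KO (limma adjusted p = 0.0146). The call against Control was lost without the second Control array, either array labelled Ovol1 KO or the first double knockout array (limma adjusted p up to 0.132), and the other without the first array labelled Ovol1 KO or the first double knockout array (up to 0.0847). Lgals9, a galectin with a pair of sugar-binding domains, read 10.60 and 11.32 in the Ovol1/2 DKO arrays, 8.72 and 8.53 in arrays labelled Ovol1 KO, and 8.63 and 8.62 in Control arrays. Its differences were 2.33 (SE 0.28, limma adjusted p = 0.0147) and 2.34 (limma adjusted p = 0.0106). The call against Control was lost without the second Control or the second double knockout array (limma adjusted p up to 0.0667), and the other without the first array labelled Ovol1 KO or the second double knockout array (up to 0.0603). Lgals4, the neighbour of Lgals7 on chromosome 7, differed from Control by 0.11 in the double knockout (SE 0.49).

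Mt4 (Entrez 17752, probe set 10574013) encodes the metallothionein of differentiating stratified epithelia, a small protein that binds zinc and copper. It read 8.83 and 9.48 in the Ovol1/2 DKO arrays, 8.69 and 9.62 in arrays labelled Ovol1 KO, and 8.59 and 9.23 in Control arrays. The second array was above the first in every group, as for 19.9% of all genes, and the groups overlapped. The difference of Ovol1/2 DKO from Control was 0.25 (SE 0.40, 95% interval -0.71 to 1.20) and that from the arrays labelled Ovol1 KO was 0.00 (95% interval -0.95 to 0.96). The mean level of 7 fibroblast markers was likewise higher in the second arrays, at 7.08 and 7.46 in Ovol1/2 DKO, 6.99 and 7.63 in arrays labelled Ovol1 KO, and 6.76 and 7.67 in Control (sums of 49.5 and 52.2, 48.9 and 53.4, and 47.3 and 53.7). Of these 7 markers, 1 averaged near background or below it, and the part of fibroblast RNA in the Mt4 values was not tested. Bgn, which encodes the matrix proteoglycan biglycan, was among the 3 genes most like Mt4 over the arrays (r = 0.970), with Eva1a (0.981) and Rtn4rl2 (0.967).

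Mt4 lies beside Mt3, Mt2 and Mt1 on mouse chromosome 8. Of the 5 metallothionein and metal-response genes, 0 passed in any comparison. Mt1, the widely expressed metal-inducible form, read 12.63 and 12.48 in the Ovol1/2 DKO arrays, 12.13 and 11.75 in arrays labelled Ovol1 KO, and 12.10 and 11.76 in Control arrays. Both double knockout arrays were above the other 4, which overlapped between their groups, but the difference from Control, 0.62, did not pass (SE 0.24, limma adjusted p = 0.392). Mt2 differed from Control by 0.30 and Mtf1, the metal-sensing transcription factor, by -0.54 (limma adjusted p = 0.441).

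**Figure D2:**
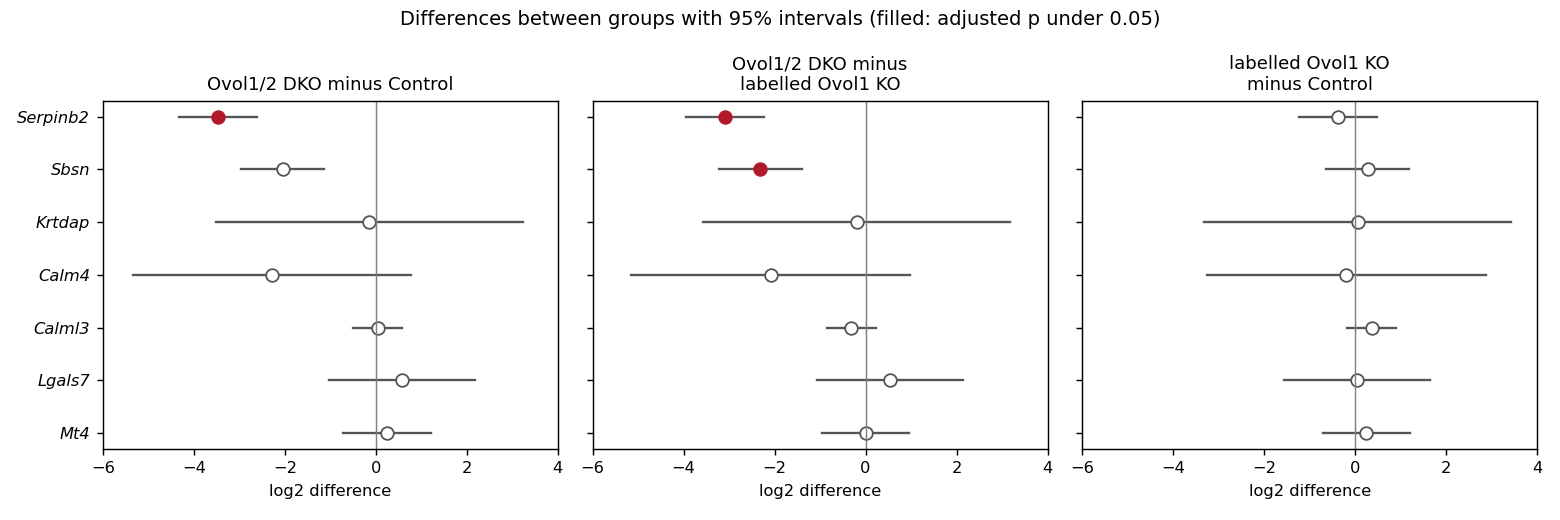
Log2 difference of each of the 7 genes (horizontal axis) in Ovol1/2 DKO minus Control, Ovol1/2 DKO minus labelled Ovol1 KO and labelled Ovol1 KO minus Control; points are fitted differences, bars are 95% intervals, and filled points passed limma's adjusted p threshold of 0.05. Serpinb2 passed in both comparisons with the double knockout and Sbsn against labelled Ovol1 KO, and the Krtdap intervals reach from -3.52 to 3.24 against Control.

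Counted together, 1 of the 7 genes was called lower and 0 higher in Ovol1/2 DKO against Control, where 1.4% of all genes were called lower and 0.622% higher. Against the arrays labelled Ovol1 KO, 2 of 7 were called lower and 0 higher, where 1.91% of all genes were called lower and 1.24% higher. Between arrays labelled Ovol1 KO and those of Control, limma called 0 of 7 and 0.0% of all genes; 0 of the 7 and 153 of the 19938 genes had an unadjusted p under 0.05. The median difference of the 7 genes was -0.14, -0.31 and 0.05 in these comparisons, against 0.03, 0.02 and -0.00 over all genes.

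Without regard to a test, both double knockout arrays were below both Control arrays in 3 of the 7 genes (Serpinb2, Sbsn and Calm4), as in 18.1% of all genes, and above them in 1 (Calml3), as in 21.1%. The arrays labelled Ovol1 KO were below Control in 1 gene (Serpinb2), against 10.3% of genes, and above it in 1 (Calml3), against 8.82%.

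Other genes of the suprabasal layers were read beside the 7 genes. Of 16 measured, 4 were called lower in Ovol1/2 DKO against Control and the same 4 against the arrays labelled Ovol1 KO, with 0 called higher. The median difference was -0.53 and -1.001. Besides Dmkn they were Zfp750 and Grhl3, transcription factors of terminal epidermal differentiation, and Lypd3, a membrane-anchored protein of the suprabasal layers. Zfp750 read 7.27 and 8.10 in the Ovol1/2 DKO arrays, 12.19 and 11.47 in arrays labelled Ovol1 KO, and 11.43 and 11.40 in Control arrays (difference from Control -3.73, SE 0.35, limma adjusted p = 0.00840). Grhl3 fell by 3.68 against Control (SE 0.37, limma adjusted p = 0.00903) and Lypd3 by 2.04 (SE 0.35, limma adjusted p = 0.0407). The calls of Zfp750 and Grhl3 held in both comparisons whichever array was left out, whereas that of Lypd3 against Control held in 1 of 6 such fits, the one without the first Control array (limma adjusted p up to 0.219 in the others), and its other call was lost without the first array labelled Ovol1 KO or the first double knockout array (up to 0.0803). The count against Control was 2 without the second Control array or without either double knockout array. Against the arrays labelled Ovol1 KO it was 2 without their first array or the first double knockout array, and 7 without their second. The classical spinous keratins did not pass: Krt1 differed from Control by -0.28 (95% interval -0.73 to 0.17) and Krt10 by -0.23 (95% interval -0.71 to 0.26). Against the arrays labelled Ovol1 KO the differences were -0.57 and -0.54, which did not pass either. Over the arrays Krt1 ran from 8.51 to 9.20 and Krt10 from 7.72 to 8.43, with both double knockout arrays the lowest in each.

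The layers on either side were read in the same way. Of 15 granular and cornified genes, 2 were called lower in Ovol1/2 DKO against Control and 3 against the arrays labelled Ovol1 KO. In each, 0 were called higher, with medians of -2.91 and -3.71. Leaving out single arrays gave 2 to 5 in each comparison: against Control, 5 without either array labelled Ovol1 KO and 4 without the second double knockout array, and against the arrays labelled Ovol1 KO, 5 without their second. Tgm1, the transglutaminase that cross-links the envelope, differed from Control by -5.00 (SE 0.41, limma adjusted p = 0.00551), and Abca12, a lipid transporter of the barrier, by -4.53 (SE 0.35, limma adjusted p = 0.00476). Cdsn, which encodes the adhesion protein corneodesmosin, passed against the arrays labelled Ovol1 KO (-5.25, limma adjusted p = 0.0375). The calls of Tgm1 and Abca12 held whichever array was left out, and that of Cdsn was lost without any 1 of the 4 arrays compared (limma adjusted p up to 0.164). Of 11 basal genes, 0 passed against Control (median 0.29) and 2 rose against the arrays labelled Ovol1 KO (median 0.73). These were Trp63, the p63 factor of basal cells, at 1.097 (limma adjusted p = 0.0464), and Dst, a hemidesmosomal plakin, at 1.34 (limma adjusted p = 0.0267). The Trp63 call was lost without any 1 of the 6 arrays (limma adjusted p up to 0.284) and the Dst call without any 1 of the 4 compared (up to 0.201). Krt5 and Krt14 both differed from Control by 0.07.

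Markers of other cells were read too. Their levels did not all follow the double knockout: the melanocyte sums below overlapped between it and the arrays labelled Ovol1 KO. The summed level of 4 simple epithelium and Merkel cell markers was 32.9 and 33.2 in the Ovol1/2 DKO arrays, 35.3 and 37.4 in arrays labelled Ovol1 KO, and 36.3 and 36.9 in Control arrays. Of these 4, only Krt8, a keratin of simple epithelia, was called lower, by -1.79 against Control (SE 0.28, limma adjusted p = 0.0316) and -1.72 against the arrays labelled Ovol1 KO (limma adjusted p = 0.0269); Krt18, its partner keratin, differed from Control by -1.53 (limma adjusted p = 0.0813). The Krt8 call against Control was lost without the second Control array or either double knockout array (limma adjusted p up to 0.183), and the other without any 1 of the 4 arrays compared (up to 0.173). The Merkel cell genes Krt20 and Atoh1 were at most 5.88 and 6.55 in any array. The summed level of 6 melanocyte markers was 41.0 and 37.3 in the Ovol1/2 DKO arrays, 42.3 and 37.8 in arrays labelled Ovol1 KO, and 44.1 and 43.9 in Control arrays; 0 of them passed, Tyrp1, an enzyme of pigment synthesis, differing from Control by -1.74 (limma adjusted p = 0.199). Of 5 endothelial markers, Pecam1 was called higher against the arrays labelled Ovol1 KO (1.28, limma adjusted p = 0.0204). It did not pass against Control (0.84, limma adjusted p = 0.100). Kdr went the other way against Control (-1.15, limma adjusted p = 0.0598) and did not pass. It was also lower in the arrays labelled Ovol1 KO than in Control (-1.08). Cdh5, Tek and Emcn were at most 6.16 in any array. The part of such cells in the values of the 7 genes was not tested.

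**Figure D3:**
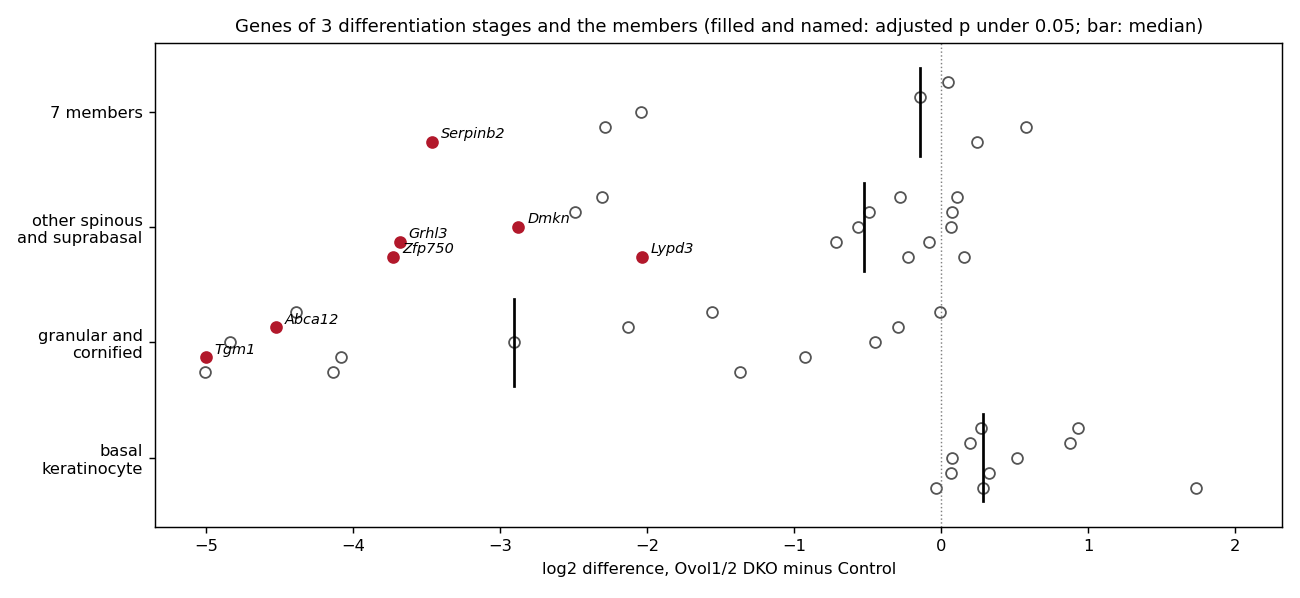
Log2 difference, Ovol1/2 DKO minus Control (horizontal axis), of the 7 genes and of each measured gene of the other spinous and suprabasal, granular and cornified, and basal lists, from top to bottom; each circle is a gene, filled and named where limma's adjusted p was under 0.05, black bars are medians, and the height within a row has no meaning. The medians are -0.14 for the 7 genes, -0.53 for other spinous and suprabasal genes, -2.91 for granular and cornified genes and 0.29 for basal genes.

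Serpinb2 was also set against its relatives and its targets. Of 17 other clade B serpins measured, 0 were called lower and 1 higher in Ovol1/2 DKO against Control, and likewise against the arrays labelled Ovol1 KO. Without regard to a test, 5 had both double knockout arrays below both Control arrays (18.1% of all genes) and 6 above them (21.1%). With single arrays left out, 0 to 1 fell against Control (1 without its first array) and 0 to 3 against the arrays labelled Ovol1 KO (3 without their second, 1 without either Control array). The gene that rose was Serpinb9, an inhibitor of the protease granzyme B, at 8.43 and 9.09 in the Ovol1/2 DKO arrays, 6.84 and 5.86 in arrays labelled Ovol1 KO, and 6.24 and 6.50 in Control arrays. Its difference from Control was 2.38 (SE 0.38, limma adjusted p = 0.0340), opposite in sign to that of Serpinb2. That call was lost without any 1 of the 4 arrays compared (limma adjusted p up to 0.203), and the one against the arrays labelled Ovol1 KO, 2.41, without their second array or either double knockout array (up to 0.147). The genes next to Serpinb2 on chromosome 1 did not pass: Serpinb7 differed from Control by -1.60 (SE 0.93) and Serpinb10 by 1.59 (SE 1.13). Further out, Serpinb11 differed by -2.68 (SE 0.95, limma adjusted p = 0.346) and Serpinb8 by -1.68 (SE 0.53, limma adjusted p = 0.260). Neither passed, and in each both double knockout arrays lay below the other 4. In Serpinb10 these arrays lay above the other 4, at 11.07 and 10.96. For Serpinb11 they read 4.35 and 5.20, under the near-background level of 6.20. Of the 17, 8 averaged near background or below it. Serpinb3a, Serpinb3c and Serpinb3d are near-identical copies whose probes may read each other.

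Of 5 genes of plasminogen activation, 0 passed in any comparison. Plau, which encodes urokinase, read 10.79 and 10.93 in the Ovol1/2 DKO arrays, 10.83 and 11.70 in arrays labelled Ovol1 KO, and 11.29 and 11.39 in Control arrays. It differed from Control by -0.48 (SE 0.30, limma adjusted p = 0.822). Its receptor gene Plaur differed by -0.69 (limma adjusted p = 0.691), and Plat, the tissue plasminogen activator gene, by -0.32 (SE 0.49).

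**Figure D4:**
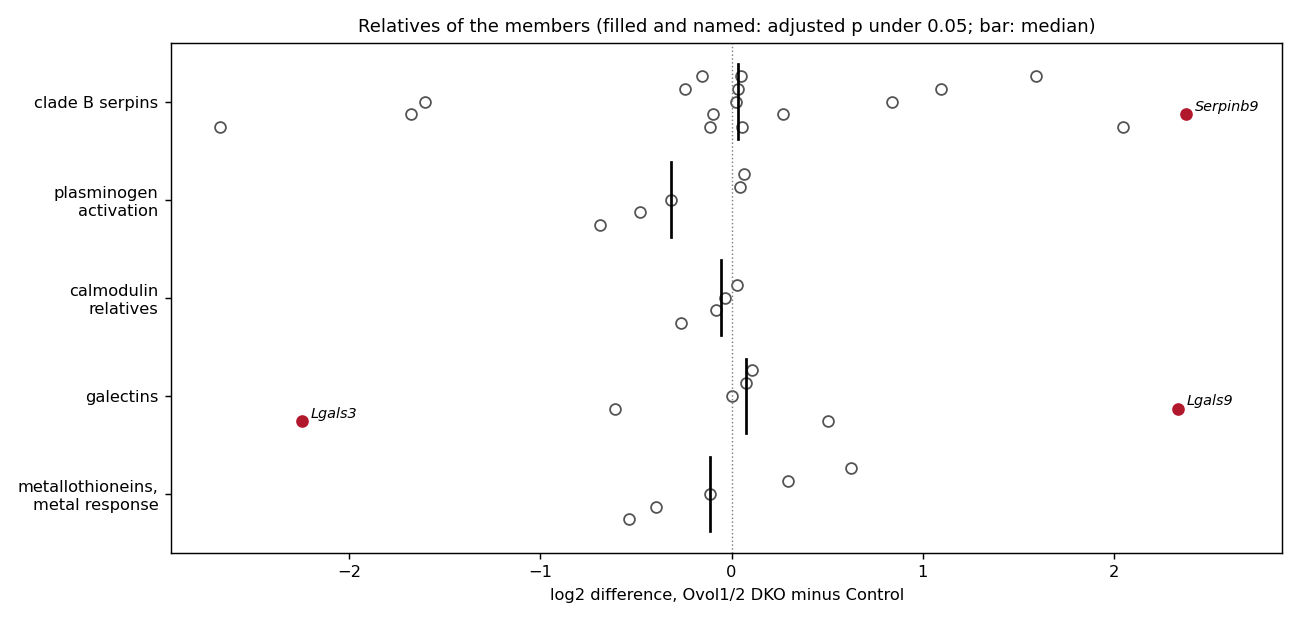
Log2 difference, Ovol1/2 DKO minus Control (horizontal axis), of each measured clade B serpin, plasminogen activation gene, calmodulin, galectin and metallothionein or metal-response gene outside the 7; circles are genes, filled and named where limma's adjusted p was under 0.05, black bars are medians, and the height within a row has no meaning. Serpinb9 (2.38) and Lgals9 (2.33) lie right of 0 and Lgals3 (-2.25) left of it.

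The genes most like each of the 7 over the 6 arrays were read from 1925 genes with a mean level no lower than that of the median gene and a standard deviation over arrays of at least 0.5. The 6 points share 3 groups, so these are descriptions. For Serpinb2 they were Prss12 (r = 0.998), a serine protease gene, Inhba (0.997), which encodes an activin subunit, and Cldn4 (0.997), a tight junction claudin. Inhba read 9.50 and 10.06 in the Ovol1/2 DKO arrays, 11.60 and 12.18 in arrays labelled Ovol1 KO, and 12.30 and 12.22 in Control arrays. For Sbsn they were Ell2 (0.999), a transcription elongation factor gene, Gramd3 (0.998) and Endou (0.998), which encodes an endoribonuclease. Endou read 7.01 and 7.07 in the Ovol1/2 DKO arrays, 11.95 and 10.01 in arrays labelled Ovol1 KO, and 9.72 and 11.07 in Control arrays.

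The genes that did not pass had companions of another shape. For Krtdap these were Fam122b (0.986), Osbpl1a (0.981) and Aldh1l2 (0.979), each highest in the first array labelled Ovol1 KO and lowest in the second. For Lgals7 they were Erlin1 (0.991), Tfcp2 (0.982) and Ints6l (0.981), which were lowest in the second array labelled Ovol1 KO too. For Calml3 they were Ttc39a (0.989), Plbd1 (0.981) and Kdm5d (0.976). Kdm5d is on the Y chromosome and read 13.61 in the first array labelled Ovol1 KO, against 7.89 or less in the others, and that array also gave the highest Calml3 value.

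**Figure D5:**
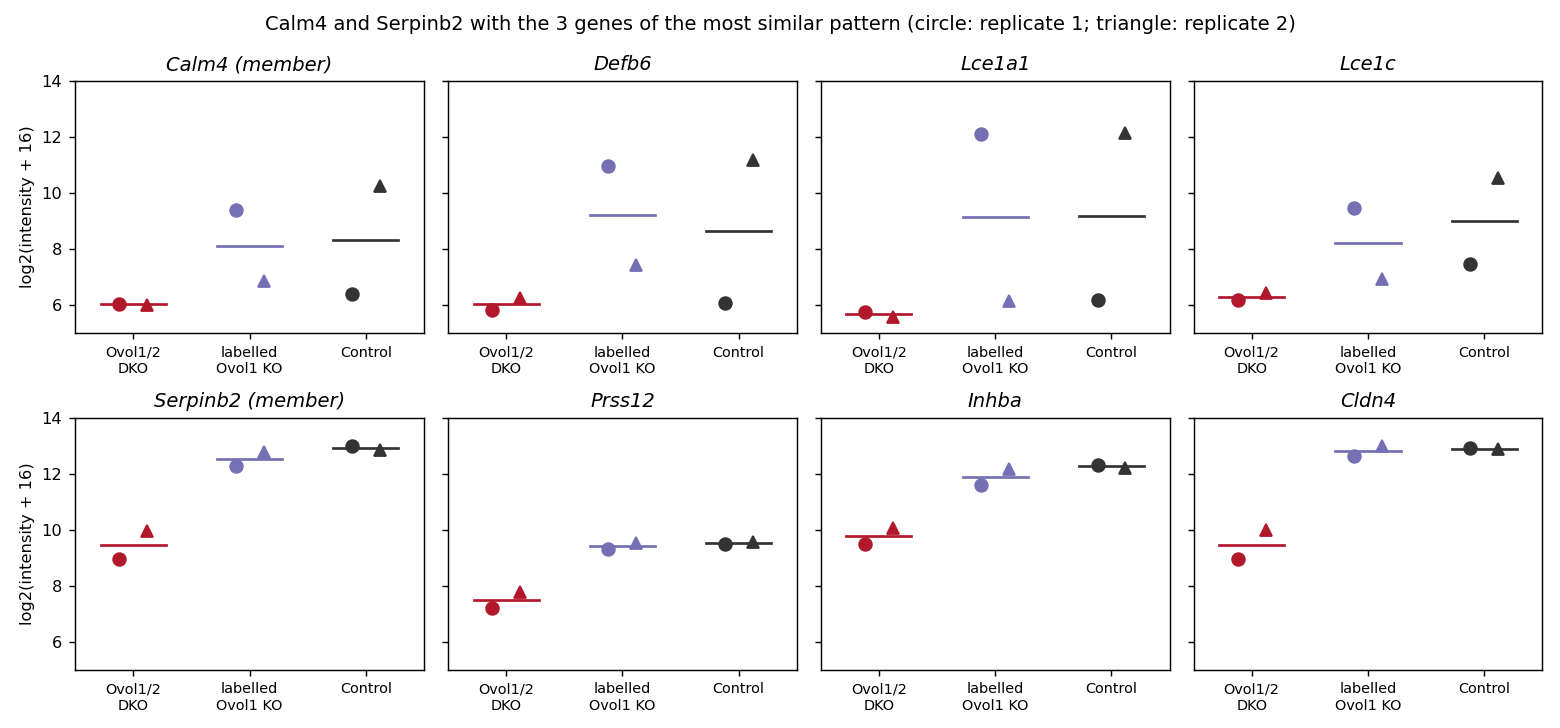
Levels of Calm4 (upper row) and Serpinb2 (lower row), each followed by the 3 genes most like it, as log2(intensity + 16) on the vertical axis, with Ovol1/2 DKO, labelled Ovol1 KO and Control from left to right; circles are replicate 1 arrays, triangles replicate 2 arrays and lines group means. In the upper row the first array labelled Ovol1 KO and the second Control array are the highest (9.40 and 10.25 for Calm4), and in the lower row both double knockout arrays are the lowest (8.95 and 9.95 for Serpinb2).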

How the data were processed

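RNA of keratinocytes was measured on 6 arrays in 3 groups of 2, which the labels call biological replicates. The authors deposited linear intensity for each probe set. Affymetrix Expression Console 1.1.1 and PLIER 2.0 are named per the submitters' processing notes; the background correction, normalization and build behind the values are not stated there. Of 35556 probe sets, 21789 had 1 gene symbol, and the one with the highest mean stood for each of 19938 genes. Symbols were updated by Entrez identifier.

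Values were taken as log2(intensity + 16), which understates changes of dim genes. One limma 3.58.1 model (R 4.3.3, lmFit and eBayes) over all arrays gave 3 comparisons, with Benjamini-Hochberg adjustment over all genes and a threshold of 0.05. An exact two-sided test of 2 arrays against 2 cannot go below p = 0.333, so the tests rest on spread pooled over genes and groups. The code of the fit was run on simulated data with known changes and independent noise in each array. That was a check of the code, and no error rate for these data is drawn from it.

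The members and lists were chosen with earlier results of these data known. The text names all 7 genes, list genes that passed (up to 6 a list by smallest p; up to 3 not passing where none did), Krt1, Krt10, Dmkn, Krt5, Krt14, Plau, Plat, Mt1, Mt2 and Lgals3, the 3 genes most like each member, and neighbours by position. Ovol1, Xist and Eif2s3y check the labels. The alternatives varied the replicates (a block by number, each array left out, the pair without Xist signal left out), the arrays in the fit (the compared groups alone), the scaling (quantile or median), the offset (1 or 64), the features (dim genes left out, a gene's probe sets averaged, all probe sets tested) and the variance model (intensity trend, robust, array weights). Leaving out either array of the group not compared gives the same fit as the compared groups alone, so these alternatives are not separate for that comparison. Promoters are RefSeq's (GRCm38.p6).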

Additional observations from a re-analysis of the deposited data

How the results depend on the processing

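Serpinb2 kept its direction in Ovol1/2 DKO under all 19 alternatives (-3.97 to -2.97 against Control, -3.58 to -2.58 against the arrays labelled Ovol1 KO) and passed in 18 of them in each comparison. It missed against Control with all probe sets tested (limma adjusted p = 0.0507), which adjusts over more tests, and against the arrays labelled Ovol1 KO without their first array. Calls among the 7 genes against Control, 1 as reported, became 2 with only the groups compared, dim genes left out, an intensity trend or array weights, Sbsn being added, and 0 with all probe sets; leaving out single arrays gave 1 to 2. Against the arrays labelled Ovol1 KO, 2 as reported became 1 with an offset of 64 or all probe sets and 0 to 2 with single arrays left out. Other spinous genes called lower against Control, 4 as reported, became 3 with the replicate block (Dmkn being lost), quantile normalization or only the groups compared, 2 with an offset of 64 or all probe sets and 2 to 3 with single arrays left out; against the arrays labelled Ovol1 KO they became 2 with all probe sets, 6 with an offset of 1, an intensity trend or the pair left out, and 2 to 7 with single arrays left out. With the replicate number as a block, 1, 2 and 0 of the 7 genes were called in the 3 comparisons, as without it, the granular genes lower against labelled Ovol1 KO became 4 from 3, while 597, 1022 and 0 of all genes were called, against 403, 628 and 0 without the block. Granular genes called lower, 2 against Control and 3 against labelled Ovol1 KO as reported, became 5 and 4 with only the groups compared, 9 and 6 with the pair without Xist signal left out, and 2 to 5 in each with single arrays left out; against labelled Ovol1 KO they became 5 with dim genes left out and 6 with an intensity trend. Galectins called lower, 1 in each, became 0 against Control with only the groups compared or an offset of 64 and 0 in each with all probe sets; single arrays left out gave 0 to 1 against Control and 0 to 2 against labelled Ovol1 KO. Clade B serpins called lower, 0 in each, became 3 and 2 with the pair left out and 1 against labelled Ovol1 KO with only the groups compared; single arrays left out gave 0 to 1 against Control and 0 to 3 against labelled Ovol1 KO. Deviations of same-numbered arrays correlated at 0.490 (Ovol1/2 DKO and Control), 0.194 (Ovol1/2 DKO and labelled Ovol1 KO) and 0.261 (labelled Ovol1 KO and Control), but no label says what a number marks.

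Leaving out the pair of arrays without Xist signal (the first of Control and of labelled Ovol1 KO) leaves 1 array in each of those groups, assumed to vary like the double knockout. It gave 3 calls against Control (Serpinb2, Sbsn and Calm4), 4 against the array labelled Ovol1 KO (Serpinb2, Sbsn, Krtdap and Lgals7), 1 between that array and Control (Calm4, -3.41, beside 2 granular genes lower there, against 0 as reported), 6 other spinous genes lower against Control, and 1 plasminogen activation gene lower against Control, against 0 as reported. Against Control, Krtdap then turned to 0.32 and Mt4 to -0.076; against labelled Ovol1 KO, Krtdap turned to 2.21 and Mt4 to -0.46; between labelled Ovol1 KO and Control, Krtdap turned to -1.89, Sbsn to -0.57 and Lgals7 to -0.50. Mt4 against labelled Ovol1 KO was -0.090 after quantile normalization, and Krtdap between labelled Ovol1 KO and Control was -0.0099 with an offset of 1. With single arrays left out, signs turned within these ranges: against Control, Krtdap -0.90 to 0.62 and Mt4 -0.080 to 0.57; against labelled Ovol1 KO, Krtdap -2.60 to 2.21, Lgals7 -0.49 to 1.58 and Mt4 -0.46 to 0.47; between labelled Ovol1 KO and Control, Krtdap -2.35 to 2.46, Lgals7 -0.997 to 1.07, Mt4 -0.22 to 0.71, Sbsn -0.25 to 0.79 and Calm4 -2.13 to 1.74. Beyond what the fewer arrays or added tests set, the cause was not tested. Signal limits Calm4, whose double knockout values lie near background.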
